A study of Solanum commersonii and Solanum tuberosum with 8 samples.

Results

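A set of 95 array clones, of 11366 measured, had transcript levels at least 2-fold lower after 7 d of cold and, without cold, in plants carrying 35S::AtCBF3. Both held in each of 2 potato species. The clones were chosen by the deposited log2 ratios themselves: a value of -1 or less in both 7 d columns and in both 35S::AtCBF3 columns, and not in both 24 h columns together. Solanum tuberosum is the cultivated potato, which is damaged by freezing, and Solanum commersonii is a wild relative that tolerates freezing and gains tolerance in the cold. Leaf RNA of wild-type S. tuberosum and S. commersonii after 2 h, 24 h and 7 d at 2°C was set against leaf RNA of wild-type plants of the same species kept at 25°C, harvested after 2 h for the first time and after 24 h for both later ones. Leaf RNA of S. tuberosum 35S::AtCBF3 (2 lines) and S. commersonii 35S::AtCBF3 (3 lines) plants in the warm was set against warm wild type. The plants had grown for 3 weeks with 16 h of light, and the cold began 8 h after dawn.

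Several features limit these groups as models. Light was also dimmer in the cold, at an intensity of 50 in the labels' unit against 350 in the warm, and the plants harvested at 7 d were older than their controls. The effects of cold, dimmer light and, at 7 d, age cannot be told apart in these columns. The 35S promoter is a viral promoter active in most plant tissues, so the transgene is not limited to the leaf or to the cold. One label of the S. tuberosum 35S::AtCBF3 sample, its genotype, names the other species, and the sample was placed by its title, source and organism. In leaf RNA, fewer cells of a type and less RNA per cell cannot be told apart.

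CBF proteins, also called DREB1, are transcription factors that are induced within hours of cold in Arabidopsis and bind the CRT/DRE element in the promoters of cold-responsive genes. They are known as activators, and the genes they raise include dehydrins and enzymes that make protective sugars. Plants that express a CBF constitutively are often dwarfed, and many transcripts are also lower in them, through steps that can lie downstream of the CBF targets. Leaves kept in the cold for days are likewise known to lower many transcripts of growth and of photosynthesis. The clones are identified here only by names such as STMIG06 and no gene was matched to them, so no role is given for any of them.

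Each column holds 1 value per clone, which the authors combined from 3 slides (2 in the case of S. tuberosum 35S::AtCBF3). No column therefore carries an error of its own, no difference below was tested, and a clone is called lower or higher when its ratio is at least 2-fold. A positive ratio was read as a higher level in cold or in transgenic plants; the order of the channels in the labels makes this direction likely, and it is not settled. Turned the other way, every lower clone would be a higher one. Column medians over all clones lay between -0.0075 and 0.011, so the level of a typical clone was close to 0 in every column.

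The selected clones come from a larger group. A total of 440 clones (3.87% of all) were lower at 7 d in both species, and 182 (1.6%) were lower with 35S::AtCBF3 in both. They shared 105 clones, which is 23.9% of the first list and 57.7% of the second. Of these 105, 10 were also lower at 24 h in both species and were left out, leaving the 95. Among the 440 clones, 177 were lower with 35S::AtCBF3 in S. tuberosum only, 17 in S. commersonii only and 141 in neither. No source used here says if the transgenic plants and the cold plants were set against the same warm RNA.

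The 95 clones were near their control at 2 h, partly lower at 24 h and well below the control at 7 d, in both species. In S. tuberosum the median log2 ratio over the 95 clones was 0.08 after 2 h, -0.57 after 24 h and -1.91 after 7 d. In S. commersonii it was 0.03, -0.59 and -2.01 after the same times. At 7 d these medians correspond to levels 3.76-fold lower in S. tuberosum and 4.03-fold lower in S. commersonii. With 35S::AtCBF3 in the warm the median was -2.10 in S. tuberosum, 4.28-fold lower, and -1.30 in S. commersonii, 2.46-fold lower. The 7 d and 35S::AtCBF3 values chose the clones and are given as a description.

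**Figure D1:**
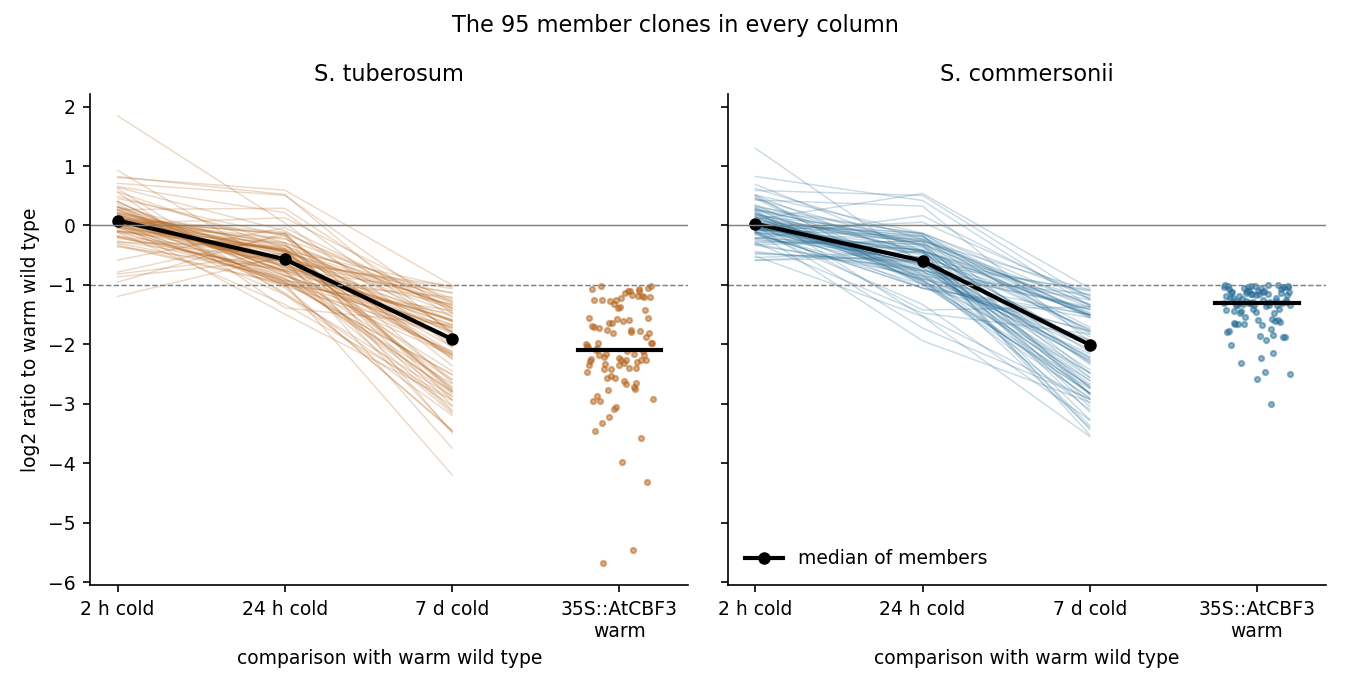
Log2 ratio to warm wild type (vertical axis) of the 95 clones in each comparison (horizontal axis), S. tuberosum on the left and S. commersonii on the right. Thin lines join the 3 cold columns of a clone, points are clones with 35S::AtCBF3, black marks are medians, and the dashed line is the threshold of -1; the medians at 7 d are -1.91 and -2.01, and with 35S::AtCBF3 -2.10 and -1.30.

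The 2 h columns have warm controls of their own and were not used to choose the clones. At 2 h the log2 ratios of the 95 clones ran from -1.19 to 1.84 in S. tuberosum, with quartiles of -0.067 and 0.25. In S. commersonii they ran from -0.59 to 1.30, with quartiles of -0.11 and 0.21. In 77 of the 95 clones (81.1%) the ratio was within 0.5 of 0 in both species, against 79.7% of all clones, so the share was close to that of the array.

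Only 1 of the 95 clones was lower at 2 h in S. tuberosum, against 0.334% of all clones, and none in S. commersonii, against 0.15%. A single clone was higher at 2 h in S. tuberosum (1.05%, against 7.87% of all clones) and another in S. commersonii (1.05%, against 10.9%). The 95 clones thus held few of the many clones that were higher after 2 h of cold. Other clones that met the same cuts in the cold columns held few as well. In S. tuberosum and S. commersonii, 0.60% and 2.99% were higher at 2 h among 167 lower in transgenic S. tuberosum only. The shares were 1.57% and 3.15% of 127 lower in neither, and 0% of 17 lower in transgenic S. commersonii only. Among 77 clones lower in both transgenic columns but not at 7 d in both species, 6.49% were higher in each species. Of the 95 clones, 44 had ratios above 0 in both species (46.3%, against 35.8% of all clones). In 24 the ratios were below 0 in both (25.3%, against 34.3%).

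At 24 h most of the clones were below the control but short of 2-fold. The ratio was below 0 in both species in 87 of the 95 clones (91.6%, against 36.2% of all clones). A level at least 1.5-fold lower was found for 47 of the 95 in S. tuberosum (49.5%, against 5.81% of all clones) and for 48 in S. commersonii (50.5%, against 4.72%). In 34 clones (35.8%, against 2.59%) this held in both species. The 24 h and 7 d columns of a species share their warm control, so the 24 h values of clones chosen at 7 d are not independent of that choice.

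A 2-fold lower level at 24 h was found in 9 of the 95 clones in S. tuberosum (9.47%, against 1.43% of all clones) and in 10 in S. commersonii (10.5%, against 1.24%). These shares depend on the scale of the columns: with a common spread they were 3.64% in S. tuberosum and 32.7% in S. commersonii, of 55 clones. The 9 and the 10 are different clones, as the choice of the 95 excludes those lower in both. The 9 clones lower in S. tuberosum had a median of -1.16 there and of -0.85 in S. commersonii. For the 10 clones lower in S. commersonii the medians at 24 h were -0.63 in S. tuberosum and -1.45 in S. commersonii. None of the 95 was 2-fold higher at 24 h in either species, while over the whole array 11.9% were in S. tuberosum and 2.65% in S. commersonii.

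By 7 d the 9 clones that were lower at 24 h in S. tuberosum stood at medians of -2.94 in S. tuberosum and -2.82 in S. commersonii. The 10 that were lower at 24 h in S. commersonii stood at -1.71 and -2.37. The other 76 clones, lower at 24 h in neither species, had medians of -1.86 and -1.95. With 35S::AtCBF3 the 3 groups had medians of -1.71, -2.40 and -2.08 in S. tuberosum, and of -1.43, -1.65 and -1.28 in S. commersonii.

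In 5 clones (5.26%, against 37.4% of all clones) the ratio was above 0 in both species at 24 h, a group noticed after the values had been seen. At 2 h in S. tuberosum these 5 clones ran from 0.65 to 1.84, and in S. commersonii from -0.22 to 0.82. At 24 h they ran from 0.042 to 0.59 in S. tuberosum and from 0.17 to 0.54 in S. commersonii. Their 7 d ratios were -2.05 to -1.01 in S. tuberosum and -1.96 to -1.06 in S. commersonii. In S. tuberosum these clones were thus above the control at 2 h and 24 h and at least 2-fold below it at 7 d.

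The depth of the decrease at 7 d varied widely among the 95 clones. The log2 ratio ran from -4.20 to -1.01 in S. tuberosum and from -3.55 to -1.06 in S. commersonii, with a lower quartile of -2.73 in each species. A log2 ratio of -2 or less, at least 4-fold lower, was reached by 45 of the 95 clones in S. tuberosum (47.4%, against 1.52% of all clones) and by 50 in S. commersonii (52.6%, against 1.23%). In 39 clones this held in both species (41.1%, against 0.889% of all clones), in 39 in neither, and in 17 in one species. The 7 d columns were used in the choice, so these shares over all clones are not a like comparison. Other clones met the same cuts in the cold columns. In S. tuberosum and S. commersonii, 32.3% and 19.8% of 167 lower in transgenic S. tuberosum only were at -2 or less at 7 d. The shares were 23.5% and 17.6% of 17 lower in transgenic S. commersonii only. They were 19.7% and 21.3% of 127 lower in neither.

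The clones lowest at 7 d were set beside the least lowered ones in the other columns. The 39 clones at least 4-fold lower in both species had 24 h medians of -0.57 in S. tuberosum and -0.62 in S. commersonii, and the 39 that were 4-fold lower in neither had -0.56 and -0.43. With 35S::AtCBF3 the first 39 had medians of -2.16 in S. tuberosum and -1.31 in S. commersonii, and the other 39 had -1.76 and -1.29. In S. commersonii the groups had nearly the same transgenic median. Their 7 d medians in that species were -2.82 and -1.47, a gap set by the split itself, which used the 7 d values. The 35S::AtCBF3 values were cut at -1 by the choice, with quartiles of -1.59 and -1.13 over the 95 clones in S. commersonii. The gaps in the 2 conditions therefore cannot be compared.

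The order of the clones by depth was alike between the species at 7 d and less so with 35S::AtCBF3. Across the 95 clones the 7 d columns of S. tuberosum and S. commersonii correlated with r = 0.76 and rho = 0.73, and the 35S::AtCBF3 columns with r = 0.30 and rho = 0.33. The 24 h columns correlated with r = 0.52 and rho = 0.53, and the 2 h columns with r = 0.67 and rho = 0.64. Across species, 7 d in S. commersonii and 35S::AtCBF3 in S. tuberosum gave r = 0.27, and 7 d in S. tuberosum and 35S::AtCBF3 in S. commersonii gave r = -0.058. The columns of each pair come from different species and share no warm control. Over all 11366 clones the same pairs were also more alike at 7 d (r = 0.82, rho = 0.75) than with 35S::AtCBF3 (r = 0.48, rho = 0.40). They had r = 0.70 and rho = 0.69 at 24 h, and r = 0.86 and rho = 0.61 at 2 h. A closer match at 7 d than with 35S::AtCBF3 is thus not particular to the 95. The pairs across conditions had r = 0.42 and r = 0.28 over all clones. These are descriptions over clones that can carry the same genes, and within the 95 the threshold of -1 truncates the values at 7 d and with 35S::AtCBF3.

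**Figure D2:**
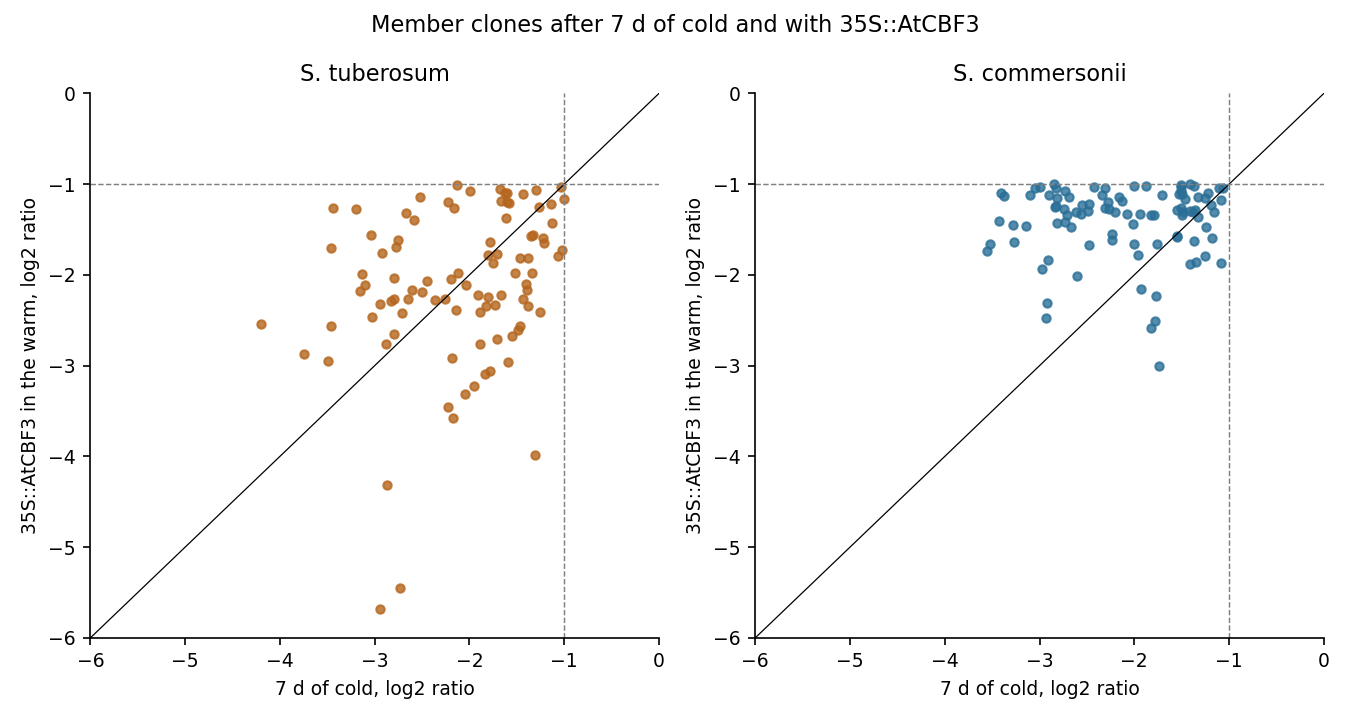
Log2 ratio after 7 d of cold (horizontal axis) and with 35S::AtCBF3 in the warm (vertical axis) for the 95 clones, S. tuberosum on the left and S. commersonii on the right; dashed lines are the threshold of -1 and the diagonal marks equal values. In S. commersonii the points reach -3.55 at 7 d and most lie above the diagonal, with 35S::AtCBF3 quartiles of -1.59 and -1.13, while in S. tuberosum they lie on both sides of it.

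Within S. commersonii the clones were mostly lower at 7 d of cold than with 35S::AtCBF3, and within S. tuberosum there was no such lean. Both conditions were used in the choice with a cut at -1, so shares over all clones are not a like comparison. Over all clones 5.42% were at -1 or less at 7 d in S. commersonii, and 3.11% with 35S::AtCBF3. In S. tuberosum the shares were 6.42% and 7.28%. In S. tuberosum 49 of the 95 clones were lower at 7 d than with 35S::AtCBF3 (50.9% of all clones were), and the median difference, 7 d minus 35S::AtCBF3, was -0.018 on the log2 scale. In S. commersonii 77 of the 95 clones were lower at 7 d (53% of all clones were), with a median difference of -0.61. The difference reached 2-fold toward 7 d in 14 clones and toward 35S::AtCBF3 in 16 in S. tuberosum, against 8.1% and 5.16% of all clones. In S. commersonii it did so in 37 clones and 1 clone, against 8.08% and 3.19%. Of the 4 columns used for the choice, the lowest value of a clone was at 7 d in S. tuberosum for 33 clones, at 7 d in S. commersonii for 26, with 35S::AtCBF3 in S. tuberosum for 33 and with 35S::AtCBF3 in S. commersonii for 3.

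At 7 d neither species had the lower ratio for most of these clones, while in the transgenic plants most had the lower ratio in S. tuberosum. At 7 d the ratio was lower in S. tuberosum than in S. commersonii in 47 clones (49.5%, against 50% of all clones) and higher in 48, and the median difference, S. tuberosum minus S. commersonii, was 0.0020. A difference of at least 2-fold at 7 d was found for 1 clone lower in S. tuberosum (1.05%, against 1.13% of all clones) and 6 lower in S. commersonii (6.32%, against 1.28%). All 6 have names that start with STMC, and without such names the share 2-fold lower in S. commersonii than in S. tuberosum was 0%, of 56 clones. Both 7 d columns were used in the choice, so these shares over all clones are not a like comparison. Other clones met the same cuts in the cold columns. Of these, 167 were lower in transgenic S. tuberosum only, 17 in transgenic S. commersonii only and 127 in neither. At 7 d 0%, 5.88% and 2.36% of these sets were 2-fold lower in S. commersonii than in S. tuberosum. The opposite held for 1.20%, 5.88% and 4.72%. At 24 h no clone was 2-fold lower in S. tuberosum than in S. commersonii (0.563% of all clones were). The ratio of 5 clones was 2-fold lower in S. commersonii than in S. tuberosum (5.26%, against 9.14%). At 2 h no clone was 2-fold lower in S. tuberosum than in S. commersonii, against 3.82% of all clones. The ratio of 2 clones was 2-fold lower in S. commersonii than in S. tuberosum (2.11%, against 0.202%). Both were above the control in S. tuberosum and neither was 2-fold below it in S. commersonii. STMCP71 stood at 1.84 in S. tuberosum and 0.59 in S. commersonii, and STMCG17 at 0.82 and -0.22.

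With 35S::AtCBF3, 75 of the 95 clones (78.9%, against 53.8% of all clones) were lower in S. tuberosum than in S. commersonii, with a median difference of -0.63. In 29 clones (30.5%, against 6.77% of all clones) the ratio was at least 2-fold lower in S. tuberosum than in S. commersonii. In none (against 5.38%) was it 2-fold lower in S. commersonii than in S. tuberosum. The transgenic columns were used in the choice with a cut at -1, so shares over all clones are not a like comparison. With that cut, a clone 2-fold lower in 1 species than in the other must stand at -2 or less there. Over all clones 1.72% did in S. tuberosum and 0.308% in S. commersonii. The S. tuberosum column had the fewest slides. It also had the larger central spread over all clones (SD from the median absolute deviation), 0.48 against 0.37 in S. commersonii. When the columns were scaled to a common spread the list held 55 clones, and 14.5% of them were 2-fold lower in S. tuberosum than in S. commersonii. The 29 clones had 7 d medians of -2.25 in S. tuberosum and -2.31 in S. commersonii, and 24 h medians of -0.41 and -0.44. The other 66 clones had 7 d medians of -1.79 and -1.98, and 24 h medians of -0.66 and -0.62.

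**Figure D3:**
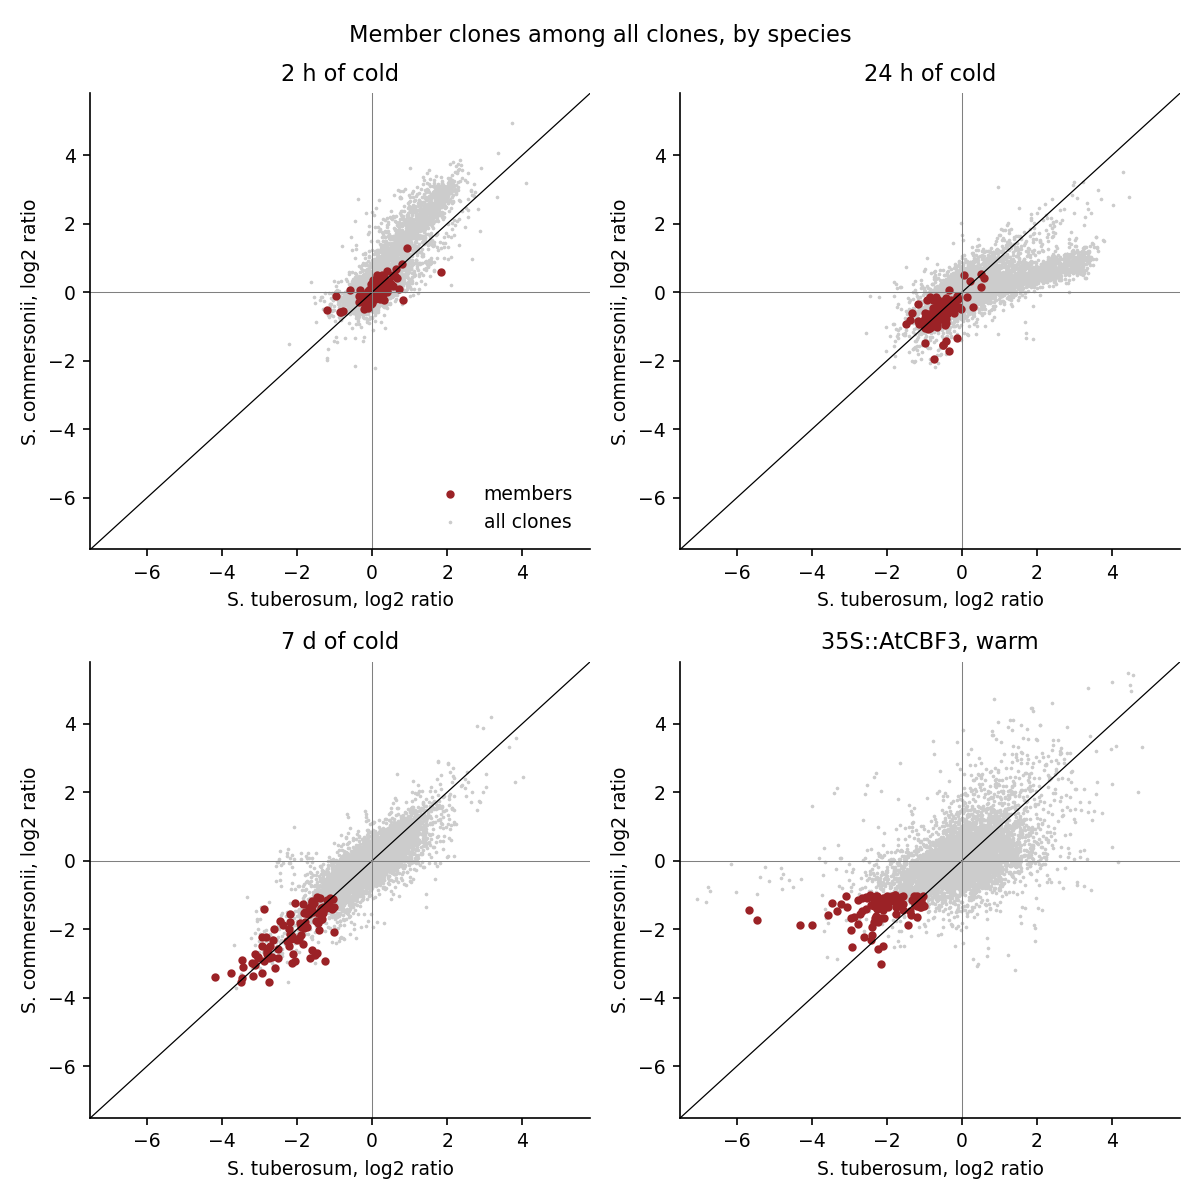
Log2 ratio in S. tuberosum (horizontal axis) and S. commersonii (vertical axis) for the 95 clones (red) and all 11366 clones (grey), 1 panel per comparison; the diagonal marks equal ratios. The 95 clones lie around 0 at 2 h and along the diagonal at 7 d, and with 35S::AtCBF3 75 of the 95 lie to the left of it, the lowest at -5.68 in S. tuberosum.

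The clones lowest by the mean of the 4 columns used for the choice were STMIG06 and STMCP90. In S. tuberosum STMIG06 stood at a log2 ratio of -1.19 after 2 h, -0.51 after 24 h and -2.73 after 7 d. In S. commersonii it stood at -0.51, -1.53 and -3.55 after the same times. With 35S::AtCBF3 it was at -5.45 in S. tuberosum and -1.74 in S. commersonii. It was the one clone of the 95 that was already 2-fold lower at 2 h in S. tuberosum, and at 7 d in S. commersonii it ranked 2 from the bottom among all 11366 clones.

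In S. tuberosum STMCP90 stood at a log2 ratio of -0.95 after 2 h, -0.13 after 24 h and -2.94 after 7 d. In S. commersonii it stood at -0.10, -1.33 and -3.28 after the same times. With 35S::AtCBF3 it was at -5.68 in S. tuberosum, 51.2-fold lower, and at -1.45 in S. commersonii, 2.73-fold lower. Both clones were lower at 2 h than at 24 h in S. tuberosum, while in S. commersonii their level was lower at each later time. In the S. tuberosum transgenic column STMCP90 and STMIG06 ranked 7 and 8 from the bottom among all clones.

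The clones highest by the mean of the 2 h columns were STMCP71 and STMIZ16. In S. tuberosum STMCP71 stood at a log2 ratio of 1.84 after 2 h, 0.042 after 24 h and -2.05 after 7 d. In S. commersonii it stood at 0.59, 0.51 and -1.24 after the same times. With 35S::AtCBF3 it was at -3.32 in S. tuberosum and -1.47 in S. commersonii. This clone was 3.59-fold higher at 2 h and 4.13-fold lower at 7 d in S. tuberosum, and is among the 5 clones above 0 at 24 h in both species.

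In S. tuberosum STMIZ16 stood at a log2 ratio of 0.93 after 2 h, -0.74 after 24 h and -1.13 after 7 d. In S. commersonii it stood at 1.30, -0.65 and -1.09 after the same times. With 35S::AtCBF3 it was at -1.43 in S. tuberosum and -1.87 in S. commersonii. STMIZ16 was the clone 2-fold higher at 2 h in S. commersonii and STMCP71 the clone 2-fold higher at 2 h in S. tuberosum. They differ at 24 h, when STMIZ16 was below 0 in both species.

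Some of the 95 clones had nearly the same values throughout. Clones were linked when all 8 of their log2 ratios lay within 0.3 of each other, a limit chosen after the values had been seen. This gave 21 linked pairs, which joined 34 clones into 14 groups and left 61 clones alone. The largest group had 4 clones, with 7 d ratios of -1.68 to -1.58 in S. tuberosum and -1.54 to -1.32 in S. commersonii. Its 35S::AtCBF3 ratios were -1.20 to -1.06 in S. tuberosum and -1.36 to -1.15 in S. commersonii. Whether linked clones carry the same gene was not tested.

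The list has no gap at its edge. The clone just inside it was 0.0012 below the threshold in its highest value, that with 35S::AtCBF3 in S. commersonii, and 17 clones lay within 0.05 of the threshold. Just outside, 15 clones came within 0.05 of it, the nearest 0.0055 above it, at 7 d in S. tuberosum. In 58 of the 95 clones the highest of the 4 values that chose them was that of S. commersonii 35S::AtCBF3, so this column set the limit of the list most often.

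The 95 clones were set beside the sets of clones most like them. The 10 clones left out for being lower at 24 h in both species as well were at the median 8.01-fold lower at 7 d in S. tuberosum and 7.86-fold lower in S. commersonii, further below the control than the 95 at 3.76-fold and 4.03-fold. The 167 clones that were lower at 7 d in both species, not at 24 h in both, and lower with 35S::AtCBF3 in S. tuberosum only had 24 h medians of -0.32 in S. tuberosum and -0.30 in S. commersonii. The 127 such clones that were lower with 35S::AtCBF3 in neither species had -0.52 and -0.49, close to the -0.57 and -0.59 of the 95. At 7 d the 167 clones had medians of -1.63 and -1.44 and the 127 clones -1.46 and -1.46, above those of the 95. A further 17 clones, lower with 35S::AtCBF3 in S. commersonii only, had 24 h medians of -0.47 and -0.66 and 7 d medians of -1.51 and -1.62. These sets share the threshold of -1 at 7 d, and the differences between them were not tested.

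The 77 clones that were lower with 35S::AtCBF3 in both species but not at 7 d in both had 24 h medians of 0.12 in S. tuberosum and 0.03 in S. commersonii. At 24 h 19 of these 77 clones were 2-fold higher in S. tuberosum (24.7%, against 11.9% of all clones). In S. commersonii 11 were (14.3%, against 2.65%). The 7 d medians of the 77 clones were -0.61 and -0.67. At 2 h the medians of the 95, 167, 127 and 77 clones ran from -0.026 to 0.092 in S. tuberosum and from -0.0097 to 0.13 in S. commersonii, with the 95 clones inside that range at 0.08 and 0.03. At 2 h the medians of these sets were thus all near the control, while their spread differed. Ratios within 0.5 of 0 in both species were found in 81.1% of the 95, 78.4% of the 167 and 70.9% of the 127 clones. The share was 55.8% of the 77 clones, against 79.7% of all clones.

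**Figure D4:**
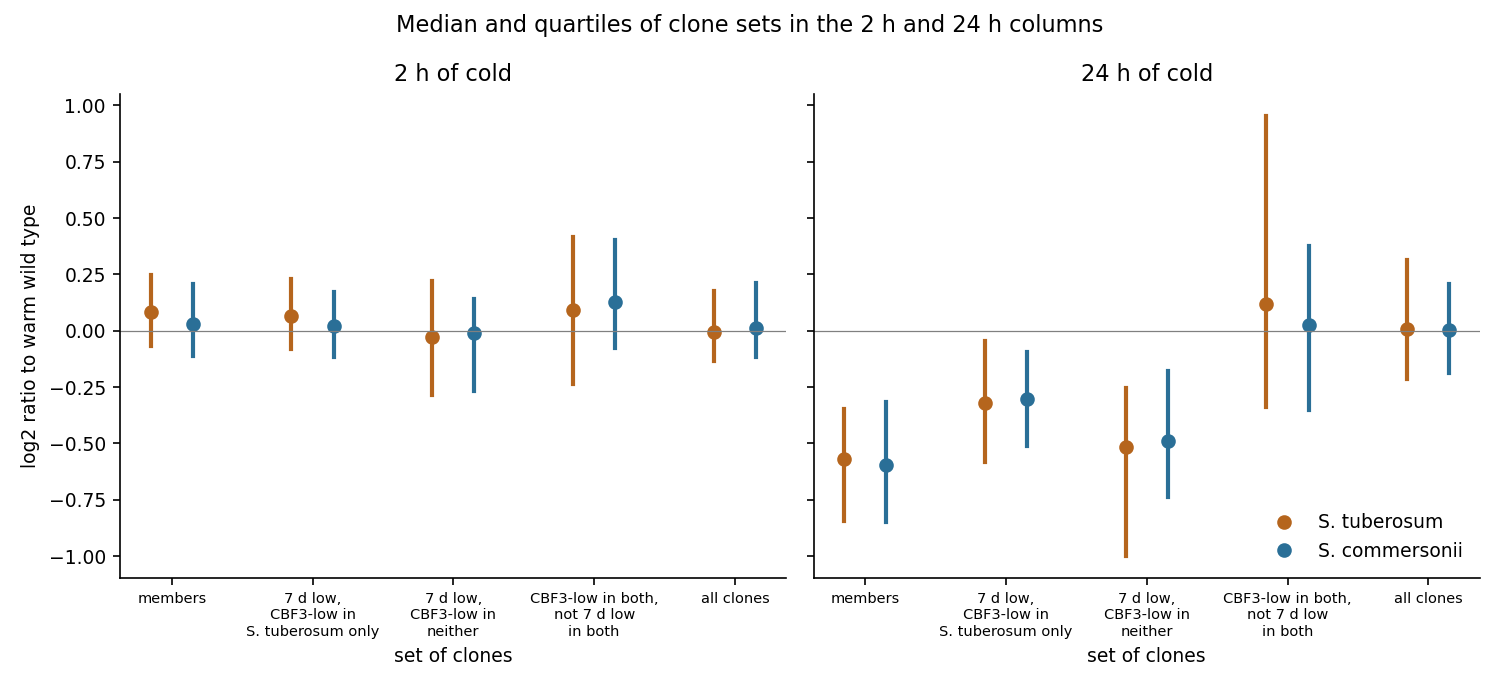
Median (point) and quartiles (bar) of the log2 ratio (vertical axis) at 2 h (left) and 24 h (right) for the 95 clones, 3 related sets of clones and all clones (horizontal axis), S. tuberosum in brown and S. commersonii in blue. At 24 h the medians of the 95 clones lie at -0.57 and -0.59, near the set that was lower with 35S::AtCBF3 in neither species (-0.52 and -0.49). The medians of the set not lower at 7 d in both species lie near 0, with quartiles of -0.34 and 0.96 in S. tuberosum.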

How the data were processed

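The authors deposited 1 log2 ratio per clone and column, combined from the slides of a 2-colour array, in 8 complete columns of 11366 clones. The submitters' processing notes name limma; no source used here gives its settings, the background correction, the normalization or any centring. The log2 scale was read from the values and from the use of limma. Signal intensities and values per slide were not analysed here, so the number of slides limits the precision and dim clones could not be set apart. Members were found by the stated thresholds, and counts, medians and correlations were computed with Python 3.11.15, pandas 2.3.3, numpy 2.4.6 and scipy 1.17.1. The code of the rule was checked on simulated data, with changed clones placed far below the threshold in the 4 columns the rule sets low. That check does not bear on clones near the threshold. The clones and lists were chosen with earlier results of these data known. Named clones are the 2 lowest by the mean of the 4 columns the rule sets low and the 2 highest by the mean of the 2 h columns. The 12 gene lists planned by annotation words could not be matched to clones and were not run. Alternatives were thresholds of 1.5-fold and 3-fold, centred or scaled columns and other uses of the 24 h columns. Clones of like profile merged to 1 by their median, and the list without clones whose names start with STMC, were added after the data had been seen.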

Additional observations from a re-analysis of the deposited data

How the results depend on the processing

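With 1 value per clone and column, leaving out a slide was not possible, and averaging clones of 1 gene was not run for want of gene names. No paired analysis was possible because no column has replicates. A share or median counted as moved when it left the 95% binomial interval of its reported value over clones, and a count when it moved by over 1.5 times. Of 148 values recomputed under 8 alternatives, 107 had not moved. Among them were all those with centred columns (93 clones), with no exclusion at 24 h (105 clones) and with like clones merged by their median. At 1.5-fold the list held 234 clones, 61 of them among the 95, since clones 1.5-fold lower in both species at 24 h were then left out. In S. tuberosum and S. commersonii its medians were -0.30 and -0.28 at 24 h, -1.37 and -1.32 at 7 d, and -1.53 and -0.92 with 35S::AtCBF3. The share of clones lower by that fold in S. tuberosum than in S. commersonii was 5.56% at 2 h and 5.13% at 24 h. It was 8.55% at 7 d and 50.0% with 35S::AtCBF3. At 3-fold 20 clones were left, 15 of them among the 95. Their medians were 0.24 and 0.087 at 2 h, -0.81 and -0.87 at 24 h, -2.67 and -2.83 at 7 d, and -2.47 and -1.76 with 35S::AtCBF3. The share lower at 24 h in S. commersonii alone was 5%. With 35S::AtCBF3 the share 3-fold lower in S. tuberosum than in S. commersonii was 10%, and at 7 d it was 0%. The share 3-fold lower in S. commersonii than in S. tuberosum was 0% at 2 h, 24 h and 7 d. With columns scaled to one spread 55 clones were left, all among the 95. The medians were then 0.15 in S. tuberosum at 2 h, -0.74 in S. commersonii at 24 h, and -1.70 at 7 d and -1.66 with 35S::AtCBF3 in S. tuberosum. The share lower at 24 h in 1 species was 3.64% for S. tuberosum and 32.7% for S. commersonii. The share 2-fold lower in S. tuberosum than in S. commersonii was 0% at 7 d and 14.5% with 35S::AtCBF3. Leaving out clones low in either 24 h column sets both 24 h shares to 0% by construction, with 76 clones. Without STMC names 56 clones were left, with a 7 d median of -1.73 in S. commersonii. The share 2-fold lower in S. commersonii than in S. tuberosum was then 0% at 2 h and at 7 d.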

Other observations

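The names of the 95 clones were unevenly spread over the array's name series. Names starting with STMC made up 39 of the 95 (41.1%), against 13.5% of all clones, and names starting with STMG made up 3 (3.16%), against 17.2%. The STMC share was 43.7% in the 167 clones also lower with 35S::AtCBF3 in S. tuberosum only, 33.1% in the 127 lower with it in neither species, and 27.3% in the 77 not lower at 7 d in both. The 39 STMC clones had 7 d medians of -2.19 in S. tuberosum and -2.48 in S. commersonii, and the other 56 had -1.77 and -1.73. By the first 5 characters of their names the 95 clones fell into 62 of 157 blocks, with at most 4 in a block and 2 pairs of consecutive names. What the name series stand for is not given in the sources used here.

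In 4 of the 95 clones (4.21%, against 0.449% of all clones) the 2 h ratio was at most -0.5 in both species. At 7 d these clones ran from -3.75 to -2.73 in S. tuberosum and from -3.55 to -3.27 in S. commersonii. With 35S::AtCBF3 they ran from -5.45 to -2.56 and from -1.74 to -1.40. They were chosen after their values had been seen. Such 2 h ratios were also found in 3.15% of the 127 clones and 1.2% of the 167, and in 0% of the 77.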
